A study of Triticum aestivum with 20 samples.

Results

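The probe sets described here are 4 of the 28894 wheat probe sets on the Affymetrix GeneChip Wheat Genome Array, chosen because the study names their genes as putative miRNA targets that encode a Tify, a bHLH, a bZIP and a PHD protein. They are Ta.14172.3.S1_x_at (Tify, gene TraesCS4D02G295900), Ta.7389.2.A1_x_at (bHLH, TraesCS2B02G289900), Ta.8200.1.S1_at (bZIP, TraesCS2B02G113200) and Ta.4140.1.A1_at (PHD, TraesCS2A02G312700). By their identifiers the Tify gene lies on chromosome 4D, the bHLH and bZIP genes on 2B, and the PHD gene on 2A. No positions are given, because no wheat genome was used here. RNA came from whole anthers of BS366, a thermo-sensitive male sterile wheat line. All plants were vernalized in the field, kept for 5 days at 10 °C (cold) or 20 °C (control) with 12 h or 14 h of light, and then moved to 20 °C with 12 h of light. Anthers were taken at 5 stages named by their length, 1.5, 2.0, 2.2, 2.5 and 3.0 mm, with 1 array for each of the 20 combinations. The 12 h and the 14 h array of a temperature and stage were therefore the only 2 values behind each mean, and no source used here says how many plants went into an array.

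Tify proteins carry a short conserved motif, and the JAZ proteins among them repress jasmonate signalling, which is needed for anther opening and pollen maturation in Arabidopsis. The bHLH and bZIP families bind DNA as dimers. In rice and Arabidopsis several bHLH factors act in the tapetum, the layer that feeds the developing pollen, and bZIP factors of the TGA group take part in anther development in Arabidopsis. PHD fingers read the methylation state of histones, and some PHD proteins of Arabidopsis and rice are required for tapetum function or meiosis in the male organ. Which family member each of the 4 wheat genes is was not given beyond these names.

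Plant miRNAs guide the cleavage of transcripts that match them closely along their length. The study lists 5 miRNAs with Tify and 2 with PHD. Mature sequences were at hand for only 3 of the 9 miRNAs listed with the 4 genes, and these are shown. They are written 5′ to 3′ in DNA letters, with bases 2 to 8, the seed, in capitals.
miR5568c-3p (Tify): aGTAATTTggaacggagg
miR9493 (Tify): aAGTAATTtggaacggagggagta
miR6224a-3p (PHD): cTTATATTtaggaacggaggg
The sequences were 18, 24 and 21 bases long and had 3 different seeds. All 18 bases of miR5568c-3p recur in miR9493 from its base 2 on. The seeds of these Tify miRNAs therefore differ only by that shift. All 3 sequences shared the unbroken run GGAACGGAGG of 10 bases, which started at base 9, 10 and 11, respectively. Of the 100 miRNA sequences in the same source, 6 held this run. The miRNAs were not measured on these arrays, and the sequences of the miRNAs paired with bHLH and bZIP are not shown.

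The 4 probe sets differed in whether the arrays could follow them. A value was called dim where it lay under the 60th percentile of all probe sets on its array (6.92 to 7.22 on the log2 scale), and very dim under the 40th percentile (5.33 to 5.62). bZIP was dim on 0 of 20 arrays and lay between 8.46 and 9.74. bHLH was dim on 6 arrays, 1 of them from cold and 5 from control anthers, and very dim on 3. Tify was dim on 18 arrays and very dim on 15, and it passed the filter on dim probe sets only through the 2 control arrays at 3.0 mm. PHD was dim on all 20 arrays and very dim on 17, so it was not among the 13805 probe sets kept for testing, and its tests come from a fit over all 28894. Exact repeats between arrays were more frequent among low values. Tify had the same value, 5.22, on 3 arrays, and PHD the same value, 5.00, on 3. bHLH had 2 such pairs of arrays, in control at 12 h (2.5 and 3.0 mm) and at 14 h (1.5 and 2.2 mm). The 14 h pair, at 7.52, was not dim. Of the kept probe sets 11.3%, and of the others 69.8%, had an equal value on 3 or more arrays.

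The whole series gave the setting for these values. Array medians lay between 6.14 and 6.46, with the lowest on the 14 h cold arrays at 3.0 and 2.5 mm. All 4 probe sets of raftin1a and raftin1b, tapetum proteins, were above the 60th percentile on every array, and 10 of 13 histone probe sets that mark dividing cells (H2A-9 and wcH2B-8) were too. Of 11 probe sets for rbcL and PRK, markers of green tissue, 3 were above it on every array. In anthers measured as a whole, fewer cells of a type and less RNA per cell cannot be told apart, and neither can a direct effect of temperature and a delay in development at the same anther length. The study names these genes for their cold against control contrasts, and its sources disagree on the stage. Its list of pairs has Tify at 3.0 mm, bHLH at 2.2 and 3.0 mm, and bZIP and PHD at 2.2 mm, while its text places all 4 at 3.0 mm. Each contrast named by either source is given below as a description with no test.

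**Figure D1:**
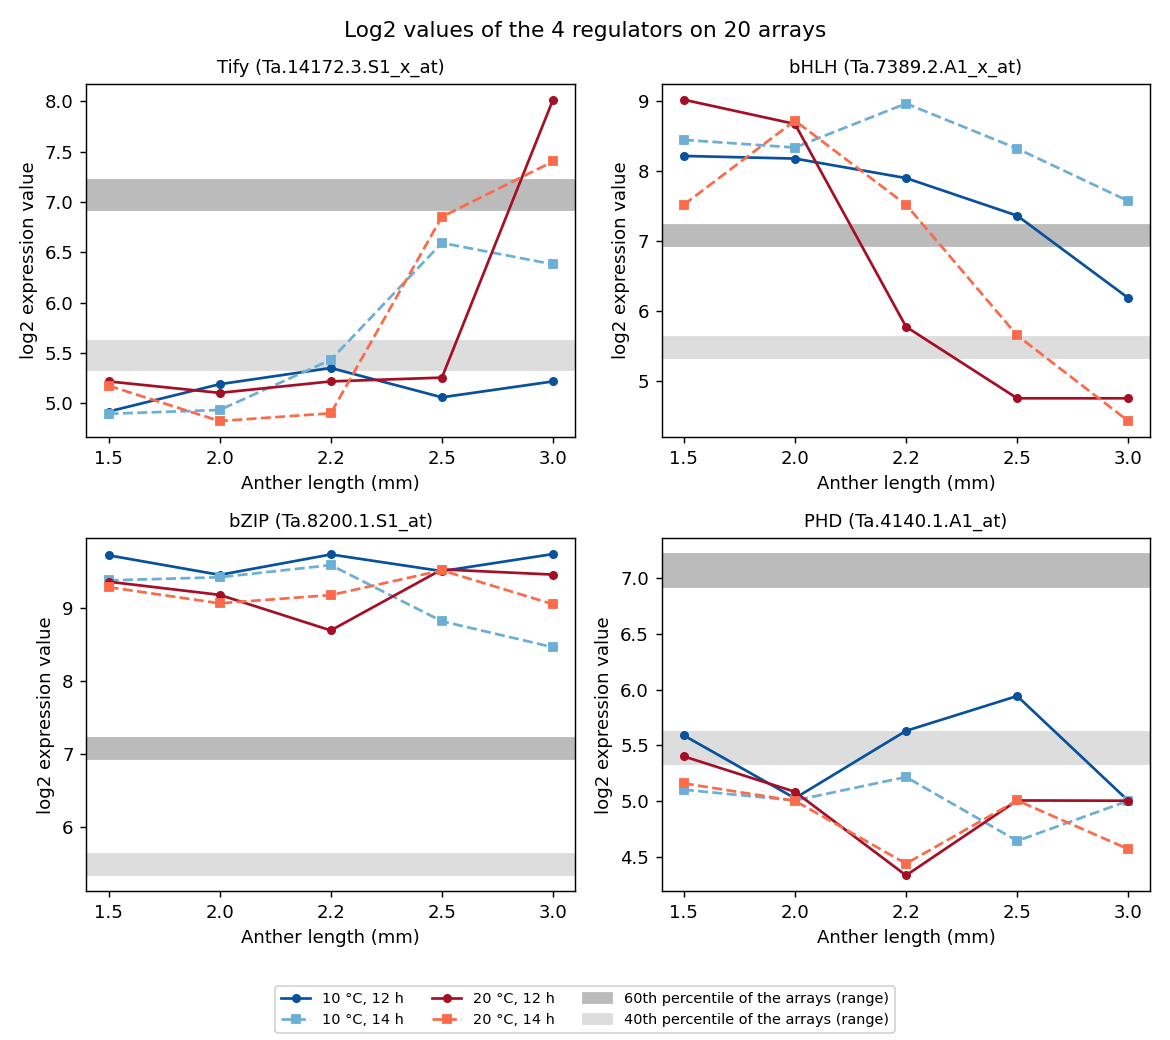
Log2 expression value of each of the 4 probe sets (vertical axes differ) on each array against anther length in mm, with stages equally spaced; colours give temperature and line styles give photoperiod, and 1 point is 1 array. Grey bands span the 60th (6.92 to 7.22) and 40th (5.33 to 5.62) percentiles of the 20 arrays; bHLH fell in control, Tify was highest in control at 3.0 mm, bZIP stayed above both bands and PHD below the upper one.

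bHLH showed the widest range of the 4, 24.0-fold between its lowest and highest array. In control anthers it started high and ended near the bottom of the arrays. At 1.5 mm the control values were 9.01 (12 h) and 7.52 (14 h), and at 2.0 mm they were 8.67 and 8.72. They were 5.77 and 7.52 at 2.2 mm, 4.75 and 5.65 at 2.5 mm, and 4.75 and 4.43 at 3.0 mm. The last 4 of these arrays were all dim, and none of the first 4 was. In cold anthers the values were 8.21 and 8.44 at 1.5 mm, 8.17 and 8.33 at 2.0 mm, and 7.90 and 8.96 at 2.2 mm. They were 7.36 and 8.32 at 2.5 mm, and 6.18 and 7.57 at 3.0 mm. Only the 12 h array at 3.0 mm was dim among the cold arrays.

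In control bHLH fell over the stages, on arrays that partly also gave its listing. Its stage means differed by up to 4.10 on the log2 scale, from 8.69 ± 0.03 (SD, n = 2) at 2.0 mm to 4.59 ± 0.23 (SD, n = 2) at 3.0 mm, which is 17.2-fold (limma moderated F test over 5 stages, adjusted p = 0.000224). The lower end is very dim, and setting every value under an array's 40th percentile to that percentile gave a difference of 3.25, or 9.49-fold (adjusted p = 0.000821). This is read against the 38.5% of kept probe sets called over the stages in control. The control arrays of 2.2 and 3.0 mm also gave the contrasts by which the gene was listed, which favoured low control values there. The course is therefore not independent of that choice, and its p-values are no separate support for the fall. Between neighbouring stages the largest step was from 2.0 to 2.2 mm. There bHLH was lower by a log2 difference of -2.05 (95% interval -3.33 to -0.77, limma adjusted p = 0.0552), with both later arrays below both earlier ones, and 4.83% of kept probe sets were called. This step missed the threshold, and it too uses the control arrays of 2.2 mm that gave a contrast of the listing. It passed in 3 of the 20 fits that left out 1 array, without the 12 h or the 14 h control array at 1.5 mm (-2.05 in both, adjusted p = 0.0198 and 0.0197) and without the 14 h control array at 2.2 mm (-2.76, adjusted p = 0.0388). Without the 12 h control array at 2.2 mm the step was -1.34, with an adjusted p of 0.358. In cold the highest and lowest stage means of bHLH differed by 1.55, and the course was not called (limma F test, adjusted p = 0.362), where 1.82% of kept probe sets were.

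Cold and control anthers differed in bHLH at 2.5 mm, a stage not named in its listing. That stage lies between 2.2 and 3.0 mm, whose contrasts gave the listing, so the result is not fully independent of that choice. The mean was 7.84 ± 0.68 (SD, n = 2) in cold and 5.20 ± 0.63 (SD, n = 2) in control, and both cold arrays lay above both control arrays. The difference was 2.64 on the log2 scale (SE 0.59, 95% interval 1.36 to 3.92), or 6.22-fold (limma adjusted p = 0.0058). Both control arrays at this stage were dim. With values raised to the 40th percentile the difference was 2.22, or 4.66-fold (limma adjusted p = 0.0122). The 12 h pair gave 2.61 and the 14 h pair 2.67. Of the kept probe sets, 16.5% were called at this stage, 806 higher and 1467 lower in cold, and bHLH was the 1 of the 3 kept regulators called. It stayed called in each of the 20 fits that left out 1 array, with differences between 2.36 and 2.91 and adjusted p between 0.0013 and 0.0413.

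At the earlier stages bHLH gave no such difference. At 1.5 mm the cold minus control difference was 0.06 (95% interval -1.22 to 1.34, limma adjusted p = 1.0), with overlapping arrays, where 0.283% of kept probe sets were called. At 2.0 mm it was -0.44 (95% interval -1.72 to 0.84, limma adjusted p = 1.0), with both cold arrays below both control arrays, where 0% were called and 581 had an unadjusted p under 0.05. The intervals still allow differences of more than 2-fold. At 2.2 mm, where 12.0% were called, the cold mean was higher by 1.78, and at 3.0 mm, where 27.2% were called, by 2.29. At both stages each cold array lay above each control array. The difference between temperatures itself was larger at 2.5 than at 2.0 mm by 3.08 (95% interval 1.27 to 4.88, limma adjusted p = 0.0474), a comparison that called 5.92% of kept probe sets. That call was close to the threshold, and 5 other settings and 14 of the 20 fits without 1 array lost it.

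Markers of cell types moved over the same stages. At 2.5 mm the summed level of the 13 dividing-cell histone probe sets was 16.0 and 15.3 (log2, 12 h and 14 h) in cold, against 15.0 and 14.2 in control. At 3.0 mm it was 15.4 and 15.4 in cold, against 13.4 and 12.8 in control. The 4 raftin probe sets summed to 12.7 and 14.8 in cold at 2.5 mm, against 15.1 and 15.0 in control. The 11 green-tissue probe sets summed to 15.5 and 15.6 in cold at 2.5 mm, and to 15.8 and 16.0 in control. The dividing-cell sum was thus higher and the raftin and green-tissue sums lower in cold, and their part in the bHLH result was not tested.

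**Figure D2:**
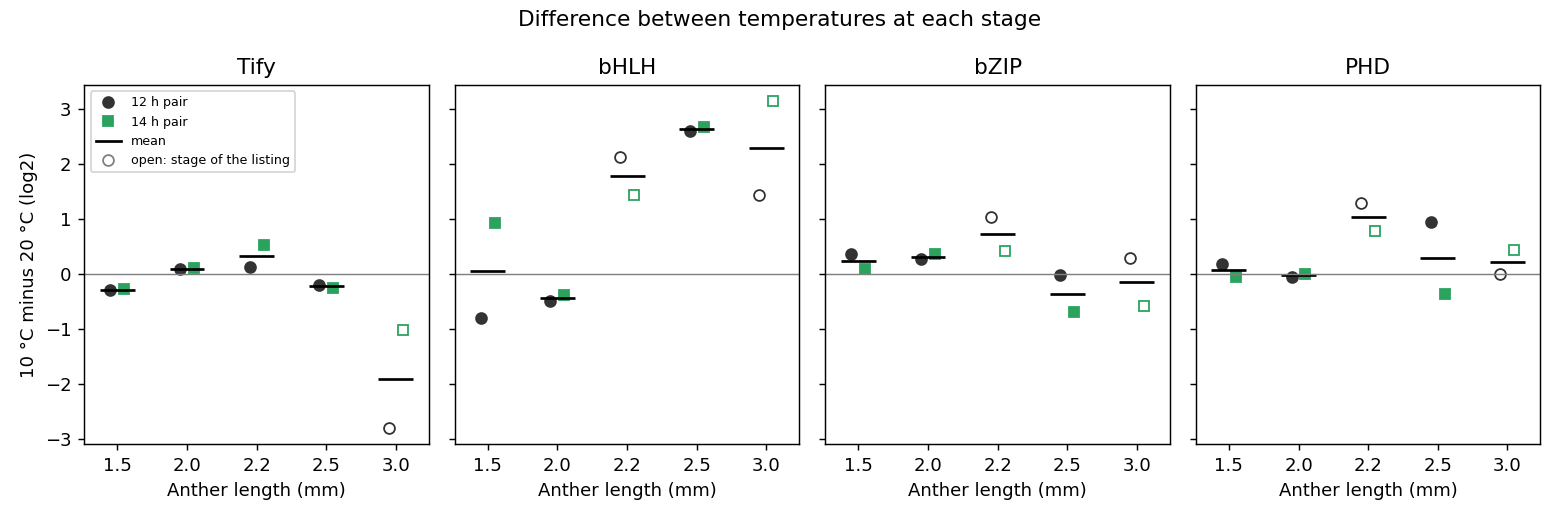
Cold minus control difference (log2) of each regulator at each anther length (mm, equally spaced); circles are the 12 h pair, squares the 14 h pair and bars their mean, with open symbols at the stages for which the study names the gene. bHLH at 2.5 mm (2.61 and 2.67) stands well above 0 in both pairs, while the closed symbols of Tify, bZIP and PHD lie within 1 log2 unit of 0.

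Tify followed the opposite course from bHLH in control anthers, at the lower end of the arrays. In control at 12 h it stayed between 5.10 and 5.25 from 1.5 to 2.5 mm and reached 8.02 at 3.0 mm. In control at 14 h it was between 4.82 and 5.17 up to 2.2 mm, 6.85 at 2.5 mm and 7.40 at 3.0 mm. In cold at 12 h all 5 values lay between 4.92 and 5.35, and all were very dim. In cold at 14 h the values were 4.90, 4.93 and 5.43 up to 2.2 mm, then 6.59 at 2.5 mm and 6.38 at 3.0 mm. At 2.5 mm both 14 h arrays were therefore high and both 12 h arrays low, whatever the temperature, while at 3.0 mm both control arrays lay above both cold arrays.

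Stage means of Tify in control differed by up to 2.75 on the log2 scale, from 4.96 at 2.0 mm to 7.71 at 3.0 mm. The control arrays at 3.0 mm were the ones through which Tify passed the filter and which gave the contrast of its listing, so this course and its last step, 1.66 from 2.5 to 3.0 mm, carry no test. In cold the stage means differed by up to 0.92, and the course was not called (limma F test, adjusted p = 0.6). At 3.0 mm the cold mean was lower than control by a log2 difference of -1.91, with -2.80 in the 12 h pair and -1.02 in the 14 h pair. At the other 4 stages the differences lay between -0.29 and 0.33 and none was called (lowest adjusted p = 0.692). Since most of these values are very dim, they say little about differences below that level.

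bZIP was bright on every array and varied least of the 4, 2.43-fold over all 20 arrays. In cold at 12 h it lay between 9.45 and 9.74, and in control at 14 h between 9.05 and 9.52. In control at 12 h the lowest of its 5 values was 8.69, at 2.2 mm, and the others lay between 9.18 and 9.53. In cold at 14 h it was 9.38, 9.42 and 9.59 up to 2.2 mm, then 8.82 at 2.5 mm and 8.46 at 3.0 mm. The last 2 arrays also had the lowest medians of the series. Neither course over the stages was called. The stage means differed by up to 0.56 in cold (limma F test, adjusted p = 0.593) and 0.59 in control (adjusted p = 0.504).

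The temperature difference of bZIP was small and changed sign between stages. It was 0.23 at 1.5 mm (95% interval -0.43 to 0.89) and 0.32 at 2.0 mm (-0.35 to 0.98). At 2.2 mm, where the list of pairs has it, the cold mean was higher by 0.73, with both cold arrays above both control arrays. It was -0.36 at 2.5 mm (-1.02 to 0.30). At 3.0 mm, where the study's text places it, the cold mean was lower by a log2 difference of -0.15. None of the 3 tested differences was called (lowest limma adjusted p = 0.403), and each interval excludes a cold increase of more than 2-fold. At 3.0 mm the arrays of both temperatures overlapped, because the 12 h cold array was the highest of all 20 and the 14 h cold array the lowest.

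PHD stayed at the bottom of the arrays, between 4.33 and 5.94. In control at 12 h its values were 5.40, 5.08, 4.33, 5.00 and 5.00 from 1.5 to 3.0 mm. In control at 14 h they were 5.16, 5.00, 4.44, 5.00 and 4.57. In both control series the lowest value was thus the one at 2.2 mm, a stage of its listing. In cold at 12 h the values were 5.59, 5.02, 5.63, 5.94 and 5.00, and these held the only 3 values over the 40th percentile. In cold at 14 h they were 5.10, 5.00, 5.21, 4.64 and 5.00. At 2.2 mm the cold mean was higher by 1.04 on the log2 scale, with 1.30 in the 12 h pair and 0.78 in the 14 h pair. At 3.0 mm it was higher by 0.22, with overlapping arrays. At the other 3 stages the differences lay between -0.03 and 0.29, and none was called in the fit over all probe sets (lowest limma adjusted p = 0.575). Its course was not called in control (0.90 between stage means, adjusted p = 0.182, where 26.3% of all probe sets were called) or in cold (0.42, adjusted p = 0.821). With both control arrays at 2.5 mm at exactly 5.00, the spread between arrays at this level is not a measure of biological variation.

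Photoperiod gave no called difference for any of the 4 regulators in 8 tests, 2 of which had an unadjusted p under 0.05. The temperature differences that the study lists match the 12 h pairs. Photoperiod tests in cold and in control reuse those 12 h arrays, so their means and p-values are not independent of the listing. In cold, bHLH was higher at 14 h than at 12 h at all 5 stages, by 0.16 to 1.39, with a mean difference of 0.76 (95% interval -0.04 to 1.55, limma adjusted p = 0.193). In cold, bZIP was lower at 14 h at all 5 stages, by a log2 difference of -0.03 to -1.28, with a mean of -0.50 (95% interval -0.87 to -0.12, unadjusted p = 0.0138 by limma's moderated test, adjusted p = 0.0983). Without the cold arrays at 2.5 and 3.0 mm, a setting chosen after seeing the data, the bZIP mean was -0.17 (adjusted p = 0.824). Of the 13805 kept probe sets, 0.464% were called for photoperiod in cold, and 3904 had an unadjusted p under 0.05. PHD was lower at 14 h in cold at 4 stages and equal at 1, with a mean of -0.44 (95% interval -0.84 to -0.05, limma adjusted p = 0.185), where 0% of all probe sets were called and 6460 had an unadjusted p under 0.05. Tify in cold gave 0.50 (95% interval -0.23 to 1.23, limma adjusted p = 0.342), with 1.54 at 2.5 mm and 1.16 at 3.0 mm against -0.26 to 0.08 before. Without those last 2 stages its mean was -0.07. A brighter probe set of the Tify cluster, Ta.14172.1.S1_at, gave -0.01 in cold (limma adjusted p = 0.982), with 0.70 at 2.5 mm and -0.29 at 3.0 mm.

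In control the photoperiod means were smaller and no regulator kept 1 direction at all stages. They were 0.07 for Tify, 0.17 for bHLH, -0.03 for bZIP and -0.13 for PHD (lowest limma adjusted p = 0.785), where 0.174% of kept probe sets were called. For bHLH the stages in control ranged from -1.5 at 1.5 mm to 1.74 at 2.2 mm. For bZIP the interval of the control mean, -0.40 to 0.35, excludes a 2-fold difference in either direction. The test of the photoperiod difference in cold against that in control called none of the 4. The gap was -0.47 for bZIP (95% interval -1.0 to 0.06, limma adjusted p = 0.249), 0.59 for bHLH, 0.43 for Tify and -0.31 for PHD, and 0.0217% of kept probe sets were called.

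**Figure D3:**
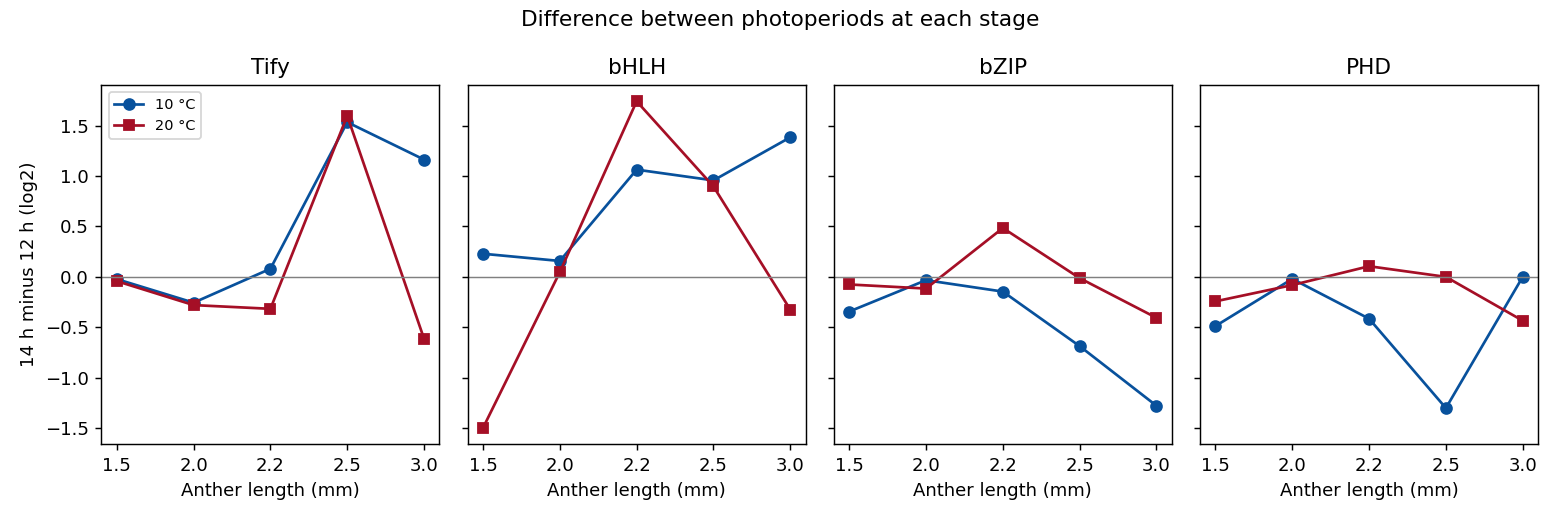
Difference between 14 h and 12 h of light (log2) for each regulator at each anther length (mm, equally spaced), with 1 array on each side of each difference; circles are 10 °C and squares 20 °C. In cold, bHLH lies above 0 and bZIP below 0 at all 5 stages, and Tify at 2.5 mm gives 1.54 in cold and 1.60 in control.

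The order of the 10 temperature and stage means was mostly not resolved between neighbours. For bHLH it ran from control at 2.0 mm (8.69) to control at 3.0 mm (4.59), and 8 of 9 neighbouring pairs overlapped in their arrays. The only pair apart was control at 2.2 mm (6.64) over control at 2.5 mm (5.20). The cold mean at 3.0 mm (6.88) lay next to the control mean at 2.2 mm. For Tify 7 of 9 pairs overlapped, and control at 3.0 mm (7.71) stood apart from the next group, control at 2.5 mm (6.05). For bZIP 7 of 9 overlapped, from cold at 2.2 mm (9.66) to control at 2.2 mm (8.94). For PHD 5 of 9 overlapped, also from cold (5.42) to control (4.38) at 2.2 mm.

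Other probe sets of the same cluster number showed similar courses over stage and temperature for bHLH and Tify. They did not match the regulators in every photoperiod difference. Such probe sets can share probes or near-identical copies of a gene, and the suffix _x_at marks sets with probes that may also bind other transcripts, so their levels are not independent of the regulators. Of the 3 others in the bHLH cluster, Ta.7389.1.S1_x_at correlated with the regulator at r = 0.99, Ta.7389.3.S1_x_at at 0.98 and Ta.7389.1.S1_a_at at 0.97 (Pearson, 20 arrays). At 2.5 mm all 3 were higher in cold, by 2.86 (limma adjusted p = 0.00698), 2.63 (adjusted p = 0.0117) and 1.71 (adjusted p = 0.0367), respectively, with both cold arrays above both control arrays. All 3 also changed over the stages in control, by 4.41, 3.78 and 3.42 between stage means (highest limma F adjusted p = 0.000635). These courses, and the steps that follow, use the control arrays of the listing, so they are not independent of it. For Ta.7389.3.S1_x_at the control step from 2.0 to 2.2 mm was called, at -2.57 (adjusted p = 0.0395), but not for Ta.7389.1.S1_x_at (-2.24, adjusted p = 0.0603) or Ta.7389.1.S1_a_at (-1.48, adjusted p = 0.125). In cold at 2.0 mm Ta.7389.1.S1_a_at was lower at 14 h than at 12 h (-0.31). The regulator (0.16), Ta.7389.1.S1_x_at (0.44) and Ta.7389.3.S1_x_at (0.33) were higher at 14 h there.

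The Tify cluster held 1 other probe set, Ta.14172.1.S1_at (r = 0.91 over 20 arrays), which was dim on only 1 array. In control it was 8.07, 7.79, 7.73, 7.83 and 10.2 at 12 h from 1.5 to 3.0 mm, and 7.16, 7.70, 7.75, 9.38 and 10.6 at 14 h. In cold it was 7.70, 7.85, 7.88, 7.86 and 8.36 at 12 h, and 7.38, 7.77, 7.81, 8.56 and 8.07 at 14 h. As for the regulator, at 2.5 mm both 14 h arrays were above both 12 h arrays, and at 3.0 mm both control arrays were above both cold arrays. The photoperiod order at 3.0 mm was the reverse of the regulator's. There 14 h minus 12 h was -0.29 in cold (regulator 1.16) and 0.40 in control (regulator -0.61). The step from 2.5 to 3.0 mm in control was 1.75, given with no test for the same reason as for the regulator's listing contrast. The clusters of bZIP and PHD held no other probe set.

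**Figure D4:**
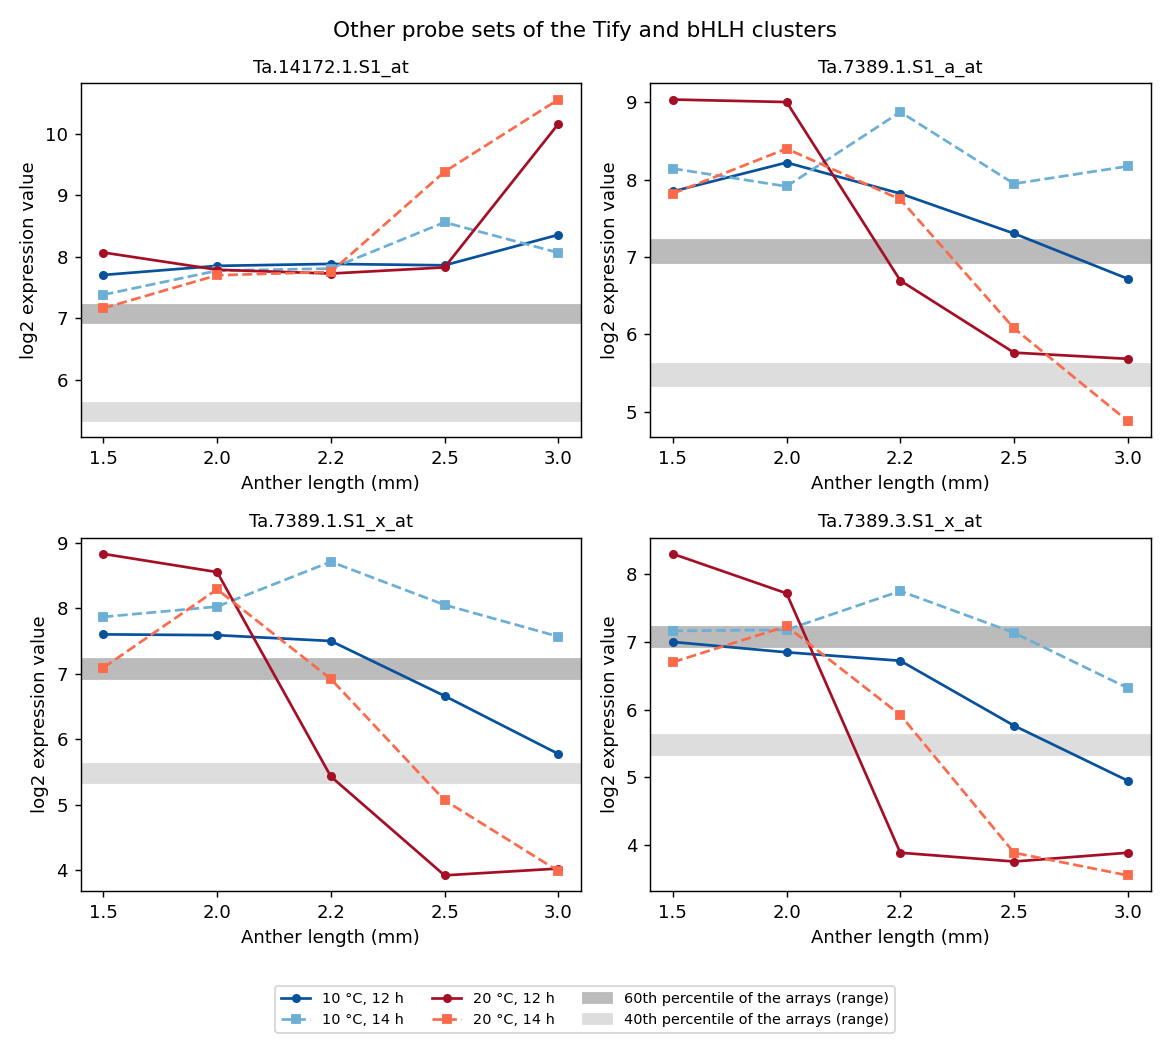
Log2 expression value of the other probe sets of the Tify and bHLH clusters (vertical axes differ) on each array against anther length in mm, equally spaced, with colours, lines and grey bands for temperature, photoperiod and the array percentiles. The 3 bHLH-cluster probe sets fell in control after 2.0 mm, and Ta.14172.1.S1_at reached 10.2 and 10.6 in control at 3.0 mm against 8.36 and 8.07 in cold.

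Correlations among the 4 regulators describe how unlike their courses were. Over the 20 arrays r was -0.60 between Tify and bHLH and 0.60 between bZIP and PHD, and the other 4 pairs lay between -0.28 and 0.36. In the 10 cold arrays Tify and bZIP had r = -0.82, against 0.30 in the 10 control arrays. Among cold arrays Tify was very dim except on the 14 h arrays at 2.5 and 3.0 mm, where bZIP was lowest. The cold r thus rests largely on those arrays. The arrays share stage, temperature and array-wide level, so these correlations carry no test.

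The kept probe sets most like each regulator are given by Pearson r over the 20 arrays. For Tify they were Ta.3914.1.A1_x_at (0.96), Ta.8571.2.S1_a_at (0.92) and Ta.21963.1.S1_at (0.92), and 11 of 13804 reached 0.9. For bHLH they were the 3 of its own cluster, and 7 reached 0.9. The most like of those with a gene symbol was Ta.27192.1.S1_at, a histone H2A-3 probe set (0.87). For bZIP the leading ones were Ta.21771.1.S1_at (0.89), TaAffx.115199.1.S1_at (0.88) and Ta.9237.1.S1_a_at (0.88). For PHD they were TaAffx.76667.1.S1_at (0.85), Ta.23203.1.S1_a_at (0.84) and TaAffx.106216.4.S1_s_at (0.84), against a dim course with repeated values, and the leading one with a symbol was a tubulin probe set, Ta.2837.1.S1_s_at (0.78). None of the first 3 for Tify, bZIP or PHD had a gene symbol here. Only 845 probe sets had one, and none of these belonged by name to the Tify, bHLH, bZIP or PHD families, so other members of the families were not analysed here.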

How the data were processed

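Total RNA of 20 anther samples was hybridized to 1 array each. The authors deposited log2 values, 1 per probe set and array, and their processing notes name MAS5. No source used here gives the scaling. The values were used as deposited, and the number of arrays limits the precision. The 28894 probe sets were tested after 1 reporter control entry was left out. The filter on dim probe sets asked for a value over the 60th percentile of the array on the 12 h and the 14 h array of some temperature and stage, which 13805 met. PHD was not, so it was taken from a fit over all probe sets. limma (version 3.58.1, R 4.3.3) fitted 1 mean per temperature and stage plus a photoperiod term, with a variance trend and 9 residual degrees of freedom. Photoperiod was tested with a term for each temperature (8 degrees of freedom). Calls needed a Benjamini-Hochberg adjusted p under 0.05 over all probe sets of the fit and a 2-fold change (for a course, between the highest and lowest stage mean). The scripts were tested on simulated data.

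Samples were grouped by temperature and stage from the labels, and replicate numbers only name the 12 h and 14 h arrays. Whether an array is a separate culture is not stated, so p-values measure the spread between these samples. The fitted photoperiod terms take out the average photoperiod difference. How that difference varied beyond these terms remains in the spread. Genes were linked to probe sets by the differences tabulated in the study. Matched to cold minus control of the 12 h arrays, each fitted 1 of 28894 probe sets. The 4 regulators, the other probe sets of their clusters and the 3 most correlated probe sets were named by rule. The members and lists were chosen with earlier results of these data known. The 4 family lists (Tify and jasmonate, bHLH, bZIP and PHD finger) matched 0 of 845 probe sets with a symbol. The alternatives were other filters, quantile normalization, a floor, no variance trend, no or separate photoperiod terms, and leaving out each array.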

Additional observations from a re-analysis of the deposited data

Results flagged for a closer look

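The effect of cold on bHLH was larger at 2.5 mm than at 2.0 mm by 3.08 on the log2 scale (limma interaction, adjusted p = 0.0474), which was called as a difference between stages. Cold minus control was -0.44 at 2.0 mm and 2.64 at 2.5 mm. In the same comparison 5.92% of the kept probe sets were called, and 3303 of 13805 had an unadjusted p under 0.05. The bHLH call was 1 among 19 tested differences of effect between stages or temperatures over the 4 regulators, 2 of which had an unadjusted p under 0.05. The call was lost under 5 other settings and in 14 of the 20 fits that left out 1 array (adjusted p between 0.0154 and 0.175 over these 20).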

How the results depend on the processing

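Of 78 tested results, 75 kept the same call under every alternative run, among them 2 of the 3 called, the bHLH difference at 2.5 mm (2.22 to 2.91) and the bHLH course in control (3.25 to 4.77). No called result changed sign, while 36 uncalled ones did in at least 1 alternative. The bHLH course in control shares arrays with the listing of the gene, so its call is not independent of that choice. The larger bHLH effect at 2.5 than at 2.0 mm lost its call without a filter (adjusted p = 0.0807), with the 40th percentile filter (0.0532), with values raised to the 40th percentile (0.0665), without a variance trend (0.0511), without the photoperiod term (0.0675) and in 14 of 20 fits without 1 array, with differences from 2.8 to 3.35. The bHLH step from 2.0 to 2.2 mm in control gained a call with values raised to the 40th percentile (adjusted p = 0.0474) and in 3 fits without 1 array, and ranged from -2.76 to -1.34 over these fits (adjusted p 0.0197 to 0.358). The larger bHLH effect at 2.5 than at 1.5 mm (2.58, adjusted p = 0.0999) gained one without the 14 h control array at 1.5 mm (3.67, adjusted p = 0.0193). Settings that removed both control arrays at 3.0 mm or the cold arrays at 2.5 and 3.0 mm were chosen after seeing the data and changed no call, but the latter moved the photoperiod mean in cold from -0.50 to -0.17 for bZIP and from 0.50 to -0.07 for Tify. PHD gave no value under the 40th percentile filter. Dim values limit PHD throughout and Tify except in control at 3.0 mm. They limit bHLH in control from 2.5 mm on, and on the 12 h arrays of control at 2.2 mm and of cold at 3.0 mm.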
